A study of Mus musculus with 96 samples.

Results

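Cardiomyocytes (CM) from the mouse heart were compared on Day 28 after myocardial infarction and on Day 0, the state before any surgery. The comparison took the 4 total RNA libraries titled as CM at Day 28 and the 4 titled as CM at Day 0, 8 of the 96 libraries of the series, and covered every gene that could be tested. Day 28 hearts came from male C57Bl/6J mice whose left anterior descending artery, the vessel of the anterior wall, had been closed by a permanent ligature at 12 to 14 weeks of age. Day 0 hearts came from unoperated mice of the same strain and sex. No sham operation was among the groups used here, so that surgery and infarction cannot be told apart. Each library was made from RNA pooled from several mice. CM were enriched from the digested heart by repeated slow centrifugation, not by a surface marker, so that other cells could remain in the isolate. The study calls its replicates biological in some places and technical in others, so the p-values speak of differences among pools of RNA and part of that spread may be technical.

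A permanent occlusion kills the muscle that the vessel feeds, and lost CM are replaced by a collagen scar. By the late phase the early inflammation has subsided, scar matrix has matured and the surviving muscle carries a higher wall stress. Surviving CM are known to return in part to a fetal program, in which beta-myosin heavy chain (Myh7), skeletal alpha-actin (Acta1) and natriuretic peptides are expressed, and to shift away from fatty acids as fuel. Complement and acute phase proteins, best known as products of the liver, can also be made in injured tissue by many cell types, and fibroblasts, macrophages and mesothelial cells of the epicardium contribute to the remodelled heart.

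The 4 Day 0 libraries held 34580079 to 44560230 estimated reads and the Day 28 libraries 27480493, 45524008, 13503024 and 46570709 in the order of replicates 1 to 4. Levels below are in CPM, estimated reads of a gene per 1000000 reads, with rRNA counted in the total and the library scaled by its TMM factor. A level that 3 reads give was at most 0.11 CPM in a Day 0 library, and 0.0976, 0.0600, 0.323 and 0.0656 CPM in Day 28 replicates 1 to 4. Mitochondrial rRNA took 53.1% to 63.5% of the reads of the 8 libraries. CM identity was clear in every library, since the summed CM markers lay at 3583 to 6035 CPM on Day 0 and 4896 to 6536 CPM on Day 28, against at most 103 CPM for the summed endothelial markers, 5.44 CPM for fibroblast markers and 1.29 CPM for hematopoietic markers. Day 28 replicates 3 and 4 stood apart. Replicate 3 was the shallowest, and short genes were high relative to long ones in both, by a log2 index of 0.53 and 0.30 against -0.08 and -0.07 in the other Day 28 libraries and -0.28 to 0.14 on Day 0. Counts of calls that rest on these libraries are given with and without them, for single genes or for the list they belong to.

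Of 14540 genes tested, 361 were higher at Day 28 (2.48%) and 159 were lower (1.09%), 520 in all (3.58%). Higher genes were mostly of low abundance, with a median log2 fold change of 1.41 at a median level of 1.42 CPM, while lower genes moved less, by a median of -0.64 at 7.48 CPM. A change of more than 1 on the log2 scale was found for 255 of the higher and 36 of the lower genes. In 816 genes (5.61%) all Day 28 libraries lay above all Day 0 libraries and in 642 genes (4.42%) all lay below, and 431 of the 520 called genes were among these. The call rested on few libraries for most genes. It held in all 8 fits that left out 1 library for 50 genes (0.344%), 44 higher and 6 lower. The total was 223, 324 and 212 without Day 0 replicates 1, 3 and 4, 1018 without Day 28 replicate 2, and 156 and 56 without Day 28 replicates 3 and 4. With the last 2 libraries both left out, 5 genes were called (Rab34, Col3a1, Sfrp2, Col1a2 and Upk1b), and all 361 higher genes still had a log2 fold change above 0 (median 1.03) and all 159 lower genes one below 0 (median -0.53), from the same Day 0 libraries and Day 28 replicates 1 and 2. With the trend of level on transcript length removed in each library, 301 of 12787 protein-coding genes were higher and 248 lower, where the fit without that step gave 312 higher and 116 lower for the same genes. By limma on log2(TPM + 1), which tested 5795 genes, 66 were higher and 11 lower. Of the 520 called genes 226 were tested on that scale and 38 of them were called.

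**Figure D1:**
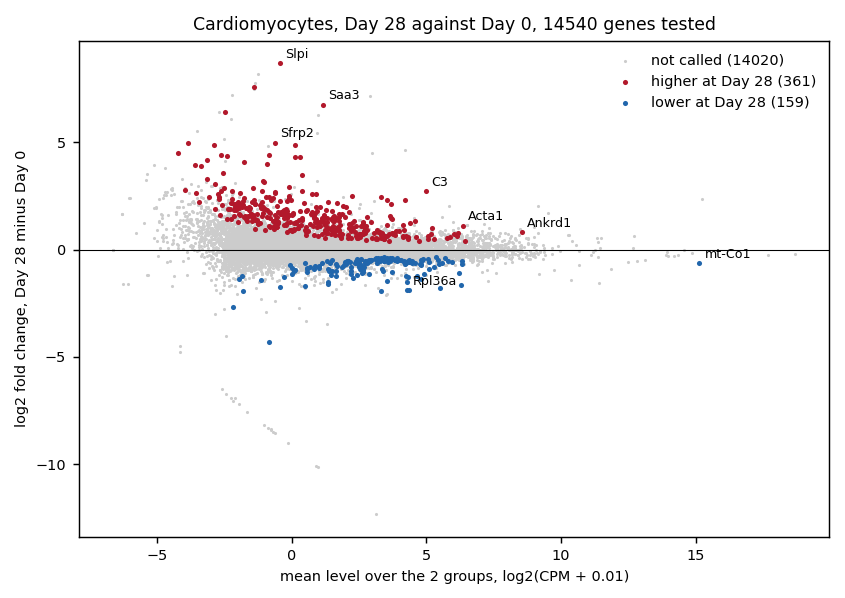
Log2 fold change of each of the 14540 genes tested (y axis, Day 28 minus Day 0, as fitted) against its mean level over both groups (x axis, log2 of CPM + 0.01). Red points are the 361 genes called higher, blue points the 159 called lower and grey points the genes not called, and the red points lie mostly at lower levels than the blue ones. Fitted values of genes with almost no Day 0 reads, Slpi, Saa3 and Sfrp2 among them, depend on the prior count of the fit.

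Genes of innate defence and of the collagen matrix gave the clearest gains, and their promoters are shown to place the letters beside the levels. The 200 bases before the RefSeq start of 3 of them are printed 5′ to 3′ on the strand of the gene (build GRCm38.p6, RefSeq). C3, the central complement component, starts on the minus strand of chromosome 17 and its window is chr17:57228137-57228336. Saa3, an acute phase serum amyloid, is on the minus strand with chr7:46715677-46715876, and Col3a1, the chain of type III collagen, is on the plus strand with chr1:45311338-45311537. Capitals mark a C/EBP core (TTGCNNAA) in C3 and Saa3, and in Col3a1 an MCAT element (CATTCC) followed by a TATA box (TATAAA).
C3: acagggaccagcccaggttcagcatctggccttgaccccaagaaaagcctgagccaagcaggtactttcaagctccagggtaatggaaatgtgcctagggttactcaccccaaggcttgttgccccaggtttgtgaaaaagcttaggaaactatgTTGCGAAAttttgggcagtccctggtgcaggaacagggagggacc
Saa3: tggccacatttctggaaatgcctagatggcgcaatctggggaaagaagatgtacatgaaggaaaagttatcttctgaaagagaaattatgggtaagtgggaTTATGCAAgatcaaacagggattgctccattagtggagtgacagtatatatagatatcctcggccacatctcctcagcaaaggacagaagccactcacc
Col3a1: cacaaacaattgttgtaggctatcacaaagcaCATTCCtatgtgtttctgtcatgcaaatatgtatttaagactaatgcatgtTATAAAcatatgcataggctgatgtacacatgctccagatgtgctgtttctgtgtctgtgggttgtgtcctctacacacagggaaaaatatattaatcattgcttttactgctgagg
The C/EBP core lay at -45 to -38 from the start in C3 and, read on the other strand, at -99 to -92 in Saa3, while Col3a1 had the MCAT letters at -168 to -163 and the TATA letters at -117 to -112. Searched on both strands of the same window, the C/EBP core was present in 7.47% of 32851 RefSeq promoters, the TATA letters in 9.96% and the MCAT letters in 10.1%. The windows were also searched for a STAT element (TTCNNNGAA, in 5.49% of promoters), an AP-1 element (TGANTCA, 5.48%) and a CCAAT box (CCAAT, 29.3%), with no match in these 3. The elements were chosen after the sequences had been seen, and a match describes letters only.

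Complement was the gene group with the most called members. Of 17 complement genes tested, 11 rose and none fell (background 2.48% higher), and all 17 log2 fold changes were above 0, with a median of 1.73 against 0.00 over all genes. C3 (chr17:57203970-57228136) had 8.97, 10.3, 6.2 and 7.40 CPM in Day 0 replicates 1 to 4 and 26.2, 46.3, 78.1 and 69.3 CPM at Day 28. Every Day 28 library was above every Day 0 library, and C3 rose by a log2 fold change of 2.73 ± 0.42 (SE, adjusted p = 0.00228). Cfb, factor B of the alternative pathway, which joins C3 in the convertase, measured 0.0979, 0.142, 0.147 and 0.0479 CPM and then 0.781, 1.26, 4.10 and 3.21 CPM, again without overlap and highest in Day 28 replicates 3 and 4. Its log2 fold change was 4.30 ± 0.74 (adjusted p = 0.00518).

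The classical pathway moved with the alternative one. C1ra and C1s1, the proteases of the C1 complex, rose by 2.00 ± 0.30 (adjusted p = 0.00121) and 2.02 ± 0.38 (adjusted p = 0.00796) on the log2 scale. C1ra went from 0.592 to 1.04 CPM over the Day 0 libraries to 2.25 to 4.04 CPM, and C1s1 from 0.958 to 2.48 CPM to 3.81 to 7.44 CPM. C4b, the component that C1s cleaves, measured 0.62, 0.545, 0.147 and 0.671 CPM and then 2.99, 1.88, 3.78 and 4.02 CPM, a log2 fold change of 2.60 ± 0.51 (adjusted p = 0.0101). The other risen members were the recognition subunits C1qb (2.71), C1qc (1.94) and C1qa (1.70), the factor B homologue C2 (1.73), the C1 inhibitor Serping1 (1.49) and the anaphylatoxin receptor C3ar1 (2.10, log2 scale throughout). C1q subunits and C3ar1 are known from macrophages, and the 3 C1q genes were also the called members of the resident macrophage list described with the cell type markers. C3, Cfb, C1ra and C1s1 kept the call in all 8 fits without 1 library. Without Day 28 replicate 4 these 4 were the called members, without replicate 3 there were 8, and without both the count was 0 with a median of 1.28.

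Acute phase genes also gained. Of 11 metallothionein and acute phase genes tested, 4 rose and none fell. Saa3 was almost silent on Day 0 with 0.0652, 0.0237, 0.0367 and 0.0239 CPM, no more than 3 reads in any library, and had 0.423, 4.76, 8.09 and 4.39 CPM on Day 28 (adjusted p = 0.00466, called in all 8 fits without 1 library). All Day 28 libraries exceeded all Day 0 libraries, and replicate 1 was the lowest by a wide margin. Timp1, an inhibitor of matrix metalloproteinases that is also induced by inflammation, went from 0.13, 0.332, 0.147 and 0.144 CPM to 0.553, 1.36, 2.70 and 1.92 CPM, a log2 fold change of 2.92 ± 0.53 (adjusted p = 0.0069). Hp, haptoglobin, which binds free haemoglobin, rose by 4.87 (adjusted p = 0.0208) and had 0.0977, 2.24, 3.78 and 2.14 CPM at Day 28, so that replicate 1 was inside the Day 0 range of 0 to 0.168 CPM. Without Day 0 replicates 1 or 3 or Day 28 replicates 3 or 4, Hp was not called, and neither was the fourth member, the protease inhibitor Serpina3n (1.68, adjusted p = 0.0329).

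Slpi and Marco, a secreted protein and a scavenger receptor, had no read in any Day 0 library. Slpi, an inhibitor of neutrophil elastase, had 0 CPM in all 4 and 0.358, 1.52, 1.94 and 1.97 CPM at Day 28, a level at least 13.1-fold higher than 3 reads in the shallowest Day 0 library by scaled depth (adjusted p = 0.00282). Marco, expressed by macrophages, had 0 CPM in all 4 and 0.0651, 0.16, 0.647 and 0.481 CPM at Day 28, at least 3.07-fold higher (adjusted p = 0.00518). Both calls held in all 8 fits without 1 library.

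Fibrillar collagens rose together. Of 22 collagen genes tested, 8 rose and none fell, 21 log2 fold changes were above 0 and the median was 1.22. Col1a1 (chr11:94936224-94953042), the alpha 1 chain of type I collagen, measured 1.86, 1.49, 1.17 and 1.2 CPM on Day 0 and 5.86, 3.90, 9.38 and 13.1 CPM on Day 28, a log2 fold change of 2.48 ± 0.35 (adjusted p = 0.00101). Col1a2 (chr6:4504814-4541544), its partner chain, moved alike from 3.85, 2.96, 2.72 and 2.47 CPM to 11.1, 9.43, 20.0 and 26.1 CPM, by 2.47 ± 0.29 (adjusted p = 0.000212). Both chains were without overlap between the groups. Col3a1 (chr1:45311538-45349706), whose promoter is shown above, had 6.10, 5.09, 4.04 and 3.93 CPM and then 17.7, 12, 22.4 and 31.9 CPM, a log2 fold change of 2.13 ± 0.27 (adjusted p = 0.000225). The 3 kept the call in all 8 fits without 1 library, and Col1a2 and Col3a1 kept it with Day 28 replicates 3 and 4 both left out, when the median of the list was 0.89. Col12a1, a fibril-associated collagen (2.21), Col6a1 and Col6a2 of the microfibrillar type VI (1.47 and 1.65), the short-chain Col8a1 (1.63) and the fibril-nucleating Col5a2 (1.27) also rose on the log2 scale, and none of these 5 was called without Day 28 replicate 4.

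Other matrix genes followed. Sfrp2, a secreted regulator of Wnt signalling and of collagen processing, had at most 3 reads in a Day 0 library (0.0326, 0.071, 0.0367 and 0 CPM) and 1.27, 0.541, 1.40 and 1.75 CPM at Day 28 (adjusted p = 0.000212). Its groups were far apart, and it was called in every fit that left out libraries of these days. Mgp, matrix Gla protein, an inhibitor of calcification, rose from 9.52, 5.30, 6.39 and 5.77 CPM to 13.6, 9.79, 26.9 and 24.8 CPM, by 1.46 ± 0.28 on the log2 scale (adjusted p = 0.00914), and lost the call without Day 28 replicate 4. Ccdc80, a secreted matrix-binding protein, went from 2.42 to 3.26 CPM to 4.82 to 10.5 CPM (log2 fold change 1.35 ± 0.23, adjusted p = 0.00466, called in all 8 fits).

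By group, 3 of 15 matricellular and scar genes rose, with a median of 1.00, among them Sparc, a collagen-binding protein (1.00), Comp, which aligns collagen fibrils (2.87), and Cilp, a matrix protein of cartilage and scar (2.29). In the same list Postn, periostin, a protein of activated fibroblasts, did not pass the test. It had 1.75 to 2.68 CPM on Day 0 and 1.54 to 5.09 CPM on Day 28 (log2 fold change 0.82, adjusted p = 0.23), and the groups overlapped. Fn1, fibronectin, had a log2 fold change of 1.16 that missed the threshold (adjusted p = 0.0765), although all Day 28 libraries (6.80 to 14.6 CPM) exceeded all Day 0 libraries (2.83 to 4.96 CPM). Counts in the other matrix lists were 2 of 12 small proteoglycan and hyaluronan genes, with the collagen-binding Dcn (1.24) and Bgn (1.27), 2 of 14 elastic fibre genes, with Mfap4 (2.17) and Efemp1 (1.13), and 3 of 14 collagen processing enzymes, the crosslinking lysyl oxidase relatives Loxl1 (1.29), Loxl2 (0.72) and Loxl3 (2.03). Besides Timp1, 1 of the 16 metalloproteinase and inhibitor genes rose, the gelatinase Mmp2 (1.61 ± 0.33, adjusted p = 0.0108). Of 19 TGF-beta genes 2 rose, the ligand Tgfb2 (0.80) and Fstl1, a secreted follistatin relative (1.30). No member of these lists fell. Without Day 28 replicate 4, Timp1 was the 1 called gene of these 6 lists.

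**Figure D2:**
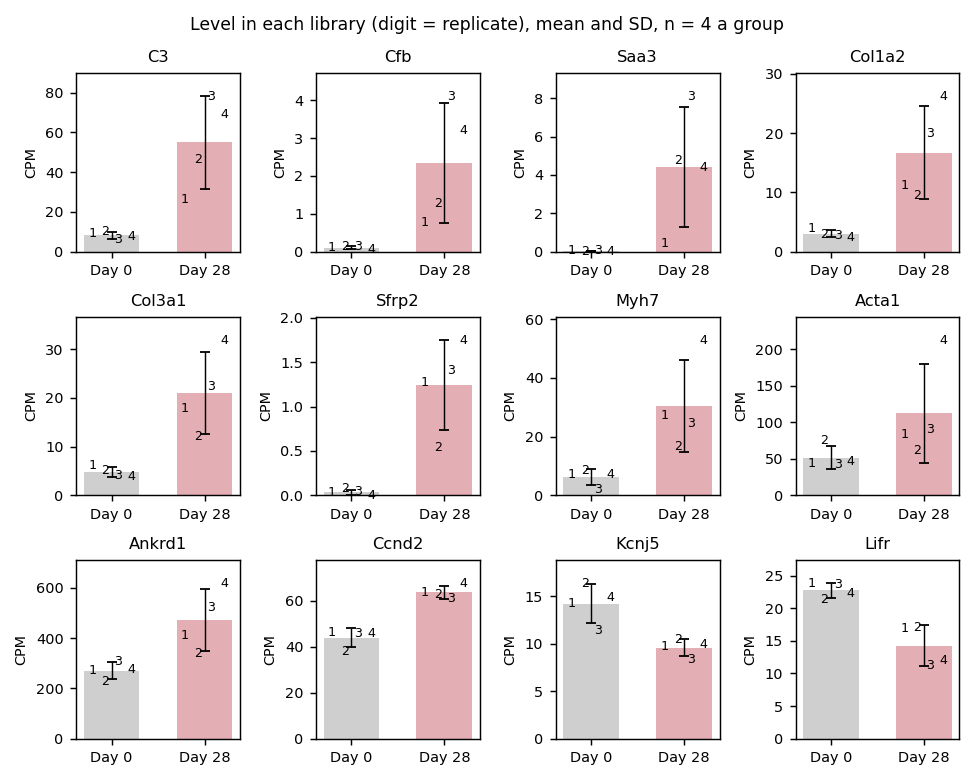
CPM (y axis, each panel from 0) of 12 genes in the Day 0 and Day 28 libraries, where a digit gives the replicate, a bar the mean and a whisker the SD (n = 4). C3, Cfb, Saa3, Col1a2 and Col3a1 were higher in every Day 28 library than in any Day 0 library, with replicates 3 and 4 the highest for all of these but Saa3, while Acta1 overlapped between the groups and Kcnj5 and Lifr were lower in every Day 28 library.

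Fibroblast, epicardial and blood cell transcripts were present at low levels in the CM isolates, and several were higher at Day 28. Summed fibroblast markers had 1.94 to 4.11 CPM on Day 0 and 4.00, 3.56, 4.53 and 5.44 CPM on Day 28, with overlap. Of these 4 markers, 1 rose, the growth factor receptor Pdgfra (0.70, adjusted p = 0.0495), which lost the call without Day 0 replicates 2, 3 or 4 and without Day 28 replicates 2, 3 or 4. The median log2 fold change was 0.58 for these markers and 1.22 for the collagen genes. Within Day 28 the marker sum, Col1a1, Col1a2 and Col3a1 were all highest in replicate 4 and lowest in replicate 2. The part of fibroblasts in the collagen result was not tested. In a bulk isolate more cells of a type and more RNA per cell cannot be told apart.

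Mesothelial genes, which mark the epithelial cover of the heart, showed a larger shift. Of 8 tested, 7 rose, with a median of 2.15, and the sum went from 4.04 to 6.59 CPM to 11.2, 13.5, 31.7 and 24.8 CPM without overlap. Upk1b, a uroplakin, had 0.424, 0.261, 0.367 and 0.287 CPM on Day 0 and 1.53, 1.86, 2.70 and 2.91 CPM on Day 28 (log2 fold change 2.74 ± 0.35, adjusted p = 0.000225). It was called in all 8 fits without 1 library and also with Day 28 replicates 3 and 4 left out. The surface protein Msln (2.20), the keratins Krt8 (2.10), Krt18 (2.33) and Krt19 (2.27), the uroplakin Upk3b (1.76) and Lrrn4 (1.45) were the other risen members. Each of these 6 lost the call without Day 28 replicate 4, and the median of the list was 1.56 without replicates 3 and 4. Wt1, a transcription factor of the epicardium, was not called (0.44, adjusted p = 0.358) and had 0.734 to 1.30 CPM and 1.12 to 1.94 CPM. The mesothelial genes also moved with complement and collagen genes across Day 28 libraries, being highest in replicates 3 and 4, and their part in those results was not tested.

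Several leukocyte genes were higher at Day 28. The summed resident macrophage genes went from 2.11 to 2.90 CPM to 5.96, 4.18, 8.41 and 8.37 CPM, and the monocyte genes from 6.92 to 8.42 CPM to 16.8, 13.4, 18.1 and 26.1 CPM, both without overlap. Without Day 28 replicates 3 and 4 no member of either list was called, and their median log2 fold changes were 0.78 and 1.02. Of the 10 macrophage genes tested 3 rose, the C1q subunits, and of the 8 monocyte genes 2, Lyz2 and Plac8. Lyz2, lysozyme of myeloid cells, had 1.21, 1.16, 1.47 and 0.79 CPM on Day 0 and 4.33, 2.32, 7.77 and 6.69 CPM on Day 28 (log2 fold change 2.15 ± 0.37, adjusted p = 0.0048, called in all 8 fits). B cell genes were carried by Day 28 replicates 3 and 4, with summed levels of 1.33, 1.36, 7.01 and 9.01 CPM against 0.29 to 1.01 CPM on Day 0. The immunoglobulin genes Igkc and Ighm rose by 4.29 (adjusted p = 0.0241) and 3.50 (adjusted p = 0.0357) and lost the call without Day 28 replicate 3 or 4 and without Day 0 replicates 1, 2 or 3 in both genes. Neutrophil sums overlapped (10.7 to 14.7 CPM and 7.71 to 38.3 CPM), although 1 of the 4 neutrophil genes tested rose (adjusted p = 0.0202, list median 1.37). None of these 4 was called without Day 28 replicates 3 and 4, when the median was 0.645. None of the T and NK cell genes could be tested (at most 0.48 CPM in sum), and erythroid, adipocyte, Schwann cell and atrial sums overlapped. Itgax, a hematopoietic marker, was at 0 in every Day 0 library, and the neutrophil marker Ly6g was at 0 in all 8 libraries. The macrophage and monocyte sums rose beside the complement genes, and their part in that result was not tested.

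**Figure D3:**
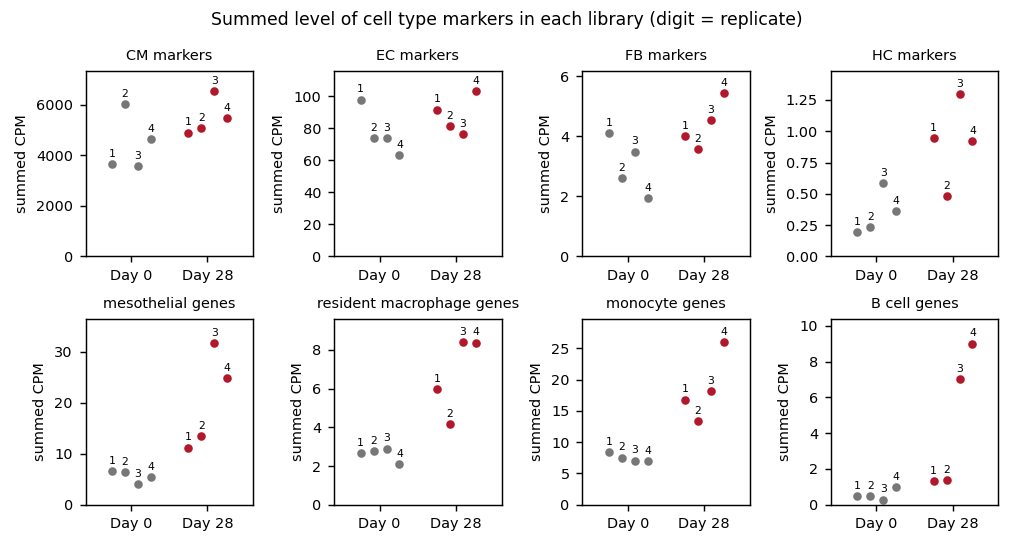
Summed CPM (y axis, from 0) of 8 lists of cell type markers in each library of Day 0 (grey) and Day 28 (red), with the replicate beside each point. CM, endothelial and fibroblast sums overlapped between the days, while mesothelial, macrophage, monocyte and B cell sums did not. Among the Day 28 libraries, replicates 3 and 4 were the highest for CM, fibroblast, mesothelial, macrophage, monocyte and B cell genes.

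Genes of antigen presentation and of interferon and cytokine signalling were called higher more often than the 2.48% of all genes, on small counts. Of 12 genes of MHC class I and antigen processing 2 rose, the immunoproteasome subunits Psmb8 (1.38 ± 0.28, adjusted p = 0.0114) and Psmb10 (0.74, adjusted p = 0.0489), and all 12 log2 fold changes were above 0 (median 0.61). Psmb8 had 0.424, 0.83, 0.55 and 0.718 CPM on Day 0 and 1.82, 1.14, 2.48 and 1.55 CPM on Day 28 and was called in all 8 fits without 1 library. Of 4 MHC class II genes, expressed by professional antigen-presenting cells, 2 rose, H2-Aa (1.21) and H2-Eb1 (1.51). Of 25 interferon response genes 3 rose, the antiviral Ifitm3 (1.1, adjusted p = 0.0192) and Oasl2 (0.90) and the chemokine Cxcl10, which had at most 0.0479 CPM on Day 0 and 0.13 to 0.324 CPM on Day 28. The median of that list was 0.53 with 24 members above 0. Of 20 cytokine and chemokine genes 4 rose, with a median of 1.42: the neutrophil attractant Cxcl5, the macrophage chemokines Ccl6 and Ccl9 (1.83) and the alarmin Il33 (1.81 ± 0.38, adjusted p = 0.0126). Ccl6 went from 0.196, 0.189, 0.22 and 0.0479 CPM to 0.911, 0.741, 1.73 and 1.07 CPM, without overlap (adjusted p = 0.00466). Psmb8 and Ccl6 were the members of these lists called without Day 28 replicate 4. Without replicates 3 and 4 none was, and the medians were 0.48 for MHC class I, 0.90 for MHC class II, 0.44 for interferon response and 1.33 for cytokine and chemokine genes.

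Among calcium-binding and membrane proteins of activated or migrating cells, S100a4 rose by 3.18 ± 0.49 (adjusted p = 0.0015) and S100a6 by 1.98 ± 0.32 (adjusted p = 0.00282). Anxa1, annexin A1, a mediator that limits inflammation, rose by 1.70 ± 0.31 (adjusted p = 0.00656). Pdpn, podoplanin, a glycoprotein of lymphatic, mesothelial and activated stromal cells, had 0.424, 0.379, 0.257 and 0.12 CPM on Day 0 and 0.879, 1.2, 1.83 and 1.84 CPM on Day 28 (log2 fold change 2.25 ± 0.33, adjusted p = 0.00101). All 4 genes were called in all 8 fits without 1 library and had no overlap between the groups. Runx1, a transcription factor of blood development that CM express after injury, rose by 2.10 ± 0.43 (adjusted p = 0.0108, called in all 8 fits), from 0.0734 to 0.216 CPM to 0.481 to 1.08 CPM. Mcub, the inhibitory subunit of the mitochondrial calcium uniporter, had at most 0.0326 CPM on Day 0 and 0.0977, 0.14, 0.324 and 0.197 CPM on Day 28 (adjusted p = 0.0069, called in all 8 fits). Its values in Day 28 replicates 1 and 3 came from about 3 reads each.

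In the contractile apparatus Myh7 and Acta1 were the called genes. Of 32 sarcomere genes tested these 2 rose and none fell (background 2.48% higher and 1.09% lower), a count too small to set the list apart from all genes. The median was 0.29, and 0.10 without Day 28 replicates 3 and 4. Myh7 (chr14:54970684-54994626), the slow beta-myosin of the fetal ventricle, had 7.14, 8.36, 2.02 and 7.16 CPM on Day 0 and 27.3, 16.8, 24.5 and 52.9 CPM on Day 28. The groups did not overlap, and the log2 fold change was 2.29 ± 0.54 (adjusted p = 0.0256). The antisense RNA Mhrt overlaps Myh7, and the reads of the pair may be mixed. Acta1, the skeletal muscle actin, had 43.0, 74.6, 42.8 and 46.1 CPM and then 83.4, 61.9, 90.2 and 213 CPM, a log2 fold change of 1.12 ± 0.30 (adjusted p = 0.042) with overlap between Day 0 replicate 2 and Day 28 replicate 2. Both calls were lost without Day 0 replicates 1, 3 or 4 and without Day 28 replicates 3 or 4.

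Of 17 fetal and stretch genes 3 rose, Myh7, Acta1 and Ankrd1, a stretch-responsive ankyrin repeat protein of the sarcomere and nucleus. Ankrd1 had 273, 228, 309 and 276 CPM on Day 0 and 409, 340, 522 and 617 CPM on Day 28, without overlap (log2 fold change 0.80 ± 0.18, adjusted p = 0.0177, lost without Day 28 replicate 3 or 4). The natriuretic peptides did not pass the test. Nppa, the atrial peptide, had 260, 305, 76.7 and 306 CPM and then 340, 115, 893 and 523 CPM (0.98, adjusted p = 0.214), and Nppb, the B-type peptide, 85.8 to 165 CPM and 123 to 204 CPM (0.31, adjusted p = 0.435). Both overlapped. Atrial genes varied between pools, with sums of 117 to 535 CPM on Day 0 and 174 to 1341 CPM on Day 28.

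Myh6, the adult alpha-myosin that Myh7 replaces in stressed rodent muscle, did not differ detectably, with 1704, 4062, 1541 and 3777 CPM against 2425, 3381, 2806 and 2914 CPM (log2 fold change 0.06 ± 0.30, adjusted p = 0.938). Day 0 replicates fell into high and low values that enclosed all Day 28 values. Tnnt2, cardiac troponin T, had a log2 fold change of 0.66 (adjusted p = 0.0676), Tnni3, troponin I, 0.68 (adjusted p = 0.257) and Actc1, cardiac actin, -0.09 (adjusted p = 0.759), none past the threshold. Ttn, titin, the giant spring of the sarcomere, had 7019, 6355, 6998 and 6994 CPM on Day 0 and 5166, 5127, 4015 and 3835 CPM on Day 28. All Day 28 libraries lay below all Day 0 libraries, yet the log2 fold change of -0.59 ± 0.18 was not called (adjusted p = 0.0586), and Day 28 replicates 3 and 4, in which long genes were low, had the lowest values. On the TPM scale the difference was 0.07.

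Ion channel genes were the cardiac group in which all calls were losses. Of 20 tested 3 fell and none rose, and 3 log2 fold changes were above 0 (background 1.09% lower). The median of the list was -0.21 in CPM and 0.07 on the TPM scale, where 8 members were tested, and it was -0.13 with no call without Day 28 replicates 3 and 4. Kcnj5, a subunit of the acetylcholine-activated potassium channel, had 14.2, 16.3, 11.4 and 14.9 CPM on Day 0 and 9.67, 10.5, 8.31 and 9.95 CPM on Day 28, with no overlap (log2 fold change -0.56 ± 0.12, adjusted p = 0.0131, lost without Day 28 replicate 4). Scn4b, a beta subunit of the sodium channel, had 6.03, 11.6, 5.50 and 8.07 CPM and then 4.30, 4.98, 4.21 and 4.31 CPM (-0.81 ± 0.19, adjusted p = 0.0247). The groups were again apart, and the call was lost without Day 0 replicates 2 or 4 or Day 28 replicates 3 or 4. Abcc9, the sulfonylurea receptor of the ATP-sensitive potassium channel, which mural cells also express, fell by 0.52 ± 0.15 on the log2 scale (adjusted p = 0.0489) with overlap between the groups, and the call was lost without Day 0 replicates 1, 3 or 4 or Day 28 replicates 3 or 4. None of 20 calcium handling genes, 18 intercalated disc genes, 14 adrenergic, angiotensin and endothelin receptor genes or 18 cardiac transcription factors was called, with medians of -0.03, -0.19, -0.04 and -0.09.

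Lifr and Ide were among the 6 lower genes called in all 8 fits without 1 library. Lifr, the receptor of leukaemia inhibitory factor, had 23.8, 21.3, 23.6 and 22.3 CPM on Day 0 and 16.8, 17.1, 11.2 and 12 CPM on Day 28, without overlap (log2 fold change -0.66 ± 0.12, adjusted p = 0.00669). Ide, the insulin-degrading enzyme, had 38.8, 30.4, 39.4 and 31.5 CPM and then 26.3, 21.2, 21 and 15.7 CPM, also without overlap (-0.73 ± 0.14, adjusted p = 0.0069). Of 18 insulin and growth factor genes, 3 rose and 1 fell. The risen ones were the stress cytokine Gdf15 (1.85, adjusted p = 0.0192) and the IGF-binding proteins Igfbp6 (1.53, adjusted p = 0.0233) and Igfbp4 (0.86, adjusted p = 0.0493), and the fallen one was Erbb4, the neuregulin receptor of CM (-0.79, adjusted p = 0.0371). None of these 4 was called without Day 28 replicate 4. Lama2, a laminin chain of the muscle basement membrane, was the 1 called of 18 laminin and integrin genes (-0.59, adjusted p = 0.00948). Other lower genes were Gpt2, a mitochondrial alanine aminotransferase (-0.64, adjusted p = 0.0113), Coq10b, a coenzyme Q binding protein (-0.64, adjusted p = 0.0177), Zfpm2, a cofactor of GATA4 (-0.59, adjusted p = 0.0153), the iron exporter Slc40a1 (-0.67, adjusted p = 0.0275), the DNA repair kinase Prkdc (-0.73, adjusted p = 0.0238) and the lipid transporter Vps13c (-0.62, adjusted p = 0.0328). All 7 lost the call without Day 28 replicate 4.

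Fuel and respiration genes gave few calls at Day 28, where 3.58% of all genes were called in either direction. None of 26 fatty acid oxidation genes, 36 nuclear oxidative phosphorylation genes, 16 citric acid cycle genes or 23 glycolysis and lactate genes was called, and their medians were -0.14, 0.12, -0.16 and -0.04. With the length trend removed 3, 2, 1 and 2 of them were lower. Of 13 protein genes of the mitochondrial genome 1 fell, mt-Co1, a core subunit of cytochrome oxidase, with 45759, 39822, 51624 and 38939 CPM on Day 0 and 30725, 33507, 20254 and 28537 CPM on Day 28. The groups did not overlap (log2 fold change -0.64 ± 0.16, adjusted p = 0.0334), and the call was lost without Day 0 replicates 1, 3 or 4 or Day 28 replicates 3 or 4. The median of these 13 was -0.27 in CPM and -0.03 in TPM, and mitochondrial mRNA took 38.1% to 54.8% of the reads outside rRNA on Day 0 and 29.8% to 48.3% on Day 28. Bdh1, the mitochondrial enzyme that oxidises the ketone body beta-hydroxybutyrate, was the 1 member called of 13 ketone and branched chain amino acid genes. It had 11.2, 19, 13.1 and 16 CPM on Day 0 and 20.6, 23.8, 21.9 and 25.5 CPM on Day 28. Every Day 28 value was above every Day 0 value (log2 fold change 0.63 ± 0.14, adjusted p = 0.0193, lost without Day 0 replicate 1 or Day 28 replicate 4).

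Stress lists gave 1 call each or none, where 3.58% of all genes were called (2.48% higher and 1.09% lower). Counts this small cannot be told apart from those shares. Of 17 heat shock genes 1 fell, the co-chaperone Dnaja1 (-0.60, adjusted p = 0.016), and of 20 genes of the unfolded protein response 1 fell, the endoplasmic reticulum co-chaperone Dnajb9 (-0.60, adjusted p = 0.0299). The lysosomal membrane protein Lamp2 was the 1 called of 21 proteolysis and autophagy genes (-0.51, adjusted p = 0.0486), and the AP-1 subunit Junb the 1 called of 24 immediate early genes (0.76, adjusted p = 0.0455). These 4 lost the call without Day 28 replicate 4. No member was called of 20 antioxidant, 17 Bcl2 family, 16 hypoxia, 18 circadian clock, 15 mitochondrial regulator and uncoupling genes or 16 long noncoding RNAs and snoRNA hosts. Bcl2 had 1.42 to 2.31 CPM on Day 0 and 1.56 to 3.32 CPM on Day 28 (0.46, adjusted p = 0.282), and the cytoskeletal actin Actb 37.1 to 69.3 CPM and 74.1 to 117 CPM (0.83, adjusted p = 0.0809), with no overlap and no call. Gapdh had 343 to 496 CPM and 468 to 1053 CPM (0.77, adjusted p = 0.0598).

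**Figure D4:**
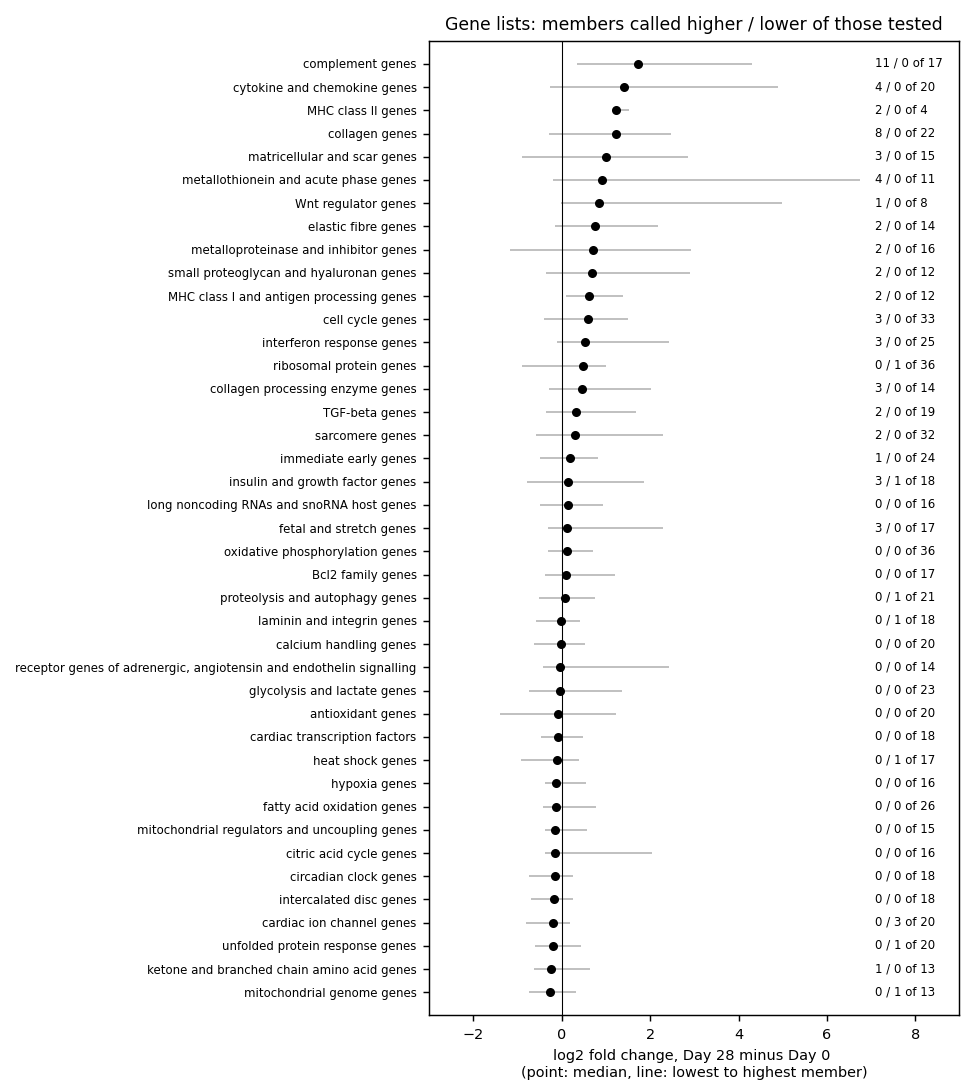
Log2 fold change of Day 28 minus Day 0 (x axis) for 41 gene lists, each with its median (point) and its lowest and highest tested member (line), and the numbers called higher and lower of those tested at the right. Complement has the highest median and the most called members, while lists of CM metabolism, channels and calcium handling lie close to 0. The line of acute phase genes reaches far right because Saa3 had almost no reads on Day 0, and its fitted value depends on the prior count.

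Several regulators rose. Ccnd2, cyclin D2, a driver of the G1 phase, had 46.3, 37.9, 45.7 and 46.0 CPM on Day 0 and 63.8, 62.9, 60.8 and 67.5 CPM on Day 28. The groups were narrow and apart, and the log2 fold change was 0.54 ± 0.09 (adjusted p = 0.00309). Top2a, the topoisomerase of dividing cells, rose by 1.45 ± 0.26 (adjusted p = 0.00518) from 0.367 to 0.575 CPM to 1.00 to 1.51 CPM. Both held in all 8 fits without 1 library, and with Ccnd1, cyclin D1 (0.61, adjusted p = 0.0203, lost without Day 0 replicates 1 or 4 or Day 28 replicate 4), they were the 3 called of 33 cell cycle genes (median 0.58). Spc24, a kinetochore subunit that was not in that list, rose by 1.24 ± 0.26 (adjusted p = 0.0126).

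Sox4, a developmental transcription factor, had 10.1, 8.38, 12.3 and 12.3 CPM on Day 0 and 23.5, 24.4, 20.8 and 26.8 CPM on Day 28, with no overlap (log2 fold change 1.16 ± 0.19, adjusted p = 0.00228). Pabpn1, the nuclear poly(A) binding protein, rose by 0.93 ± 0.14 (adjusted p = 0.00101), Zbtb7a, a transcriptional repressor, by 0.83 ± 0.16 (adjusted p = 0.0069) and Pmepa1, a feedback inhibitor of TGF-beta signalling, by 0.83 ± 0.14 (adjusted p = 0.00282). Rab34, a small GTPase of Golgi and ciliary traffic, went from 1.24, 1.78, 1.54 and 1.82 CPM to 4.10, 3.16, 7.33 and 2.51 CPM (adjusted p = 0.00518) and was 1 of the 5 genes called with Day 28 replicates 3 and 4 left out. All of these and Spc24 were called in each of the 8 fits without 1 library. Gxylt2, a xylosyltransferase, had 2.77, 3.22, 5.58 and 3.52 CPM and then 5.60, 11.1, 47.9 and 13.9 CPM (2.33 ± 0.50, adjusted p = 0.0177), with replicate 3 far above the others, and lost the call without Day 0 replicates 1 or 4 or Day 28 replicate 4.

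Calls among small nucleolar RNAs were all losses. These RNAs guide chemical modification of rRNA (snoRNA) and of spliceosomal RNA (scaRNA). Of 235 snoRNAs tested 23 fell and none rose, with a median of -0.49 and 80.4% below 0, and of 18 scaRNAs 5 fell and none rose, with a median of -0.88 (background 1.09% lower). Of 36 small nuclear RNAs 2 fell and none rose, with a median of -0.55. Most lower calls rested on Day 28 replicates 3 and 4. Among genes of every kind 31 were lower without replicate 3, 7 without replicate 4 and none without both. Counts for these RNAs alone were not made in those fits. Scarna10, a guide of Cajal bodies, had 34.5, 46.0, 29.5 and 31.9 CPM on Day 0 and 17.5, 18.0, 9.28 and 14.3 CPM on Day 28, with no overlap (adjusted p = 0.00282, called in all 8 fits). It lies inside Ncapd2 on the same strand, so the fall of Ncapd2 (-1.02, adjusted p = 0.0488) cannot be told apart from it. Snora7a fell by 1.90 on the log2 scale (adjusted p = 0.0379) and Snora3 by 1.53 (adjusted p = 0.0256), and both lost the call without Day 0 replicate 2 and without Day 28 replicates 3 or 4. The summed snoRNA and scaRNA level was 1765, 3495, 2120 and 2101 CPM on Day 0 and 1440, 1636, 1015 and 1815 CPM on Day 28, highest in Day 0 replicate 2 and lowest in Day 28 replicate 3, and the groups overlapped, since Day 28 replicate 4 was above Day 0 replicate 1. Over 5 groups of protein-coding genes of nearly equal size, from the shortest to the longest, the median log2 fold change went 0.21, 0.05, 0.00, -0.06 and -0.12. The same was not tested among snoRNAs.

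Of 36 ribosomal protein genes tested 34 had a log2 fold change above 0, with a median of 0.48, and none was called higher. The median was 0.20 with the length trend removed and 0.24 without Day 28 replicates 3 and 4. The 1 called gene of the list fell, Rps2 (-0.91 ± 0.19, adjusted p = 0.0111), and 2 ribosomal protein genes outside the list, Rpl9 (-0.70, adjusted p = 0.0193) and Rpl36a, fell as well. Rpl36a had 36.6, 27.7, 35.5 and 22.2 CPM on Day 0 and 6.64, 7.27, 6.36 and 12.4 CPM on Day 28 (-1.88 ± 0.50, adjusted p = 0.0455), and lost the call in each of the 8 fits without 1 library. Reads of these genes can be split with near-identical processed pseudogenes, so that their values are uncertain.

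The Day 28 state was also set beside the earlier days of CM, which share the Day 0 libraries. Col1a1 had mean levels of 1.43, 4.03, 79.8, 82.9, 28.9 and 8.06 CPM on Day 0, 1, 3, 7, 14 and 28, and Timp1 0.188, 4.94, 13.3, 4.83, 3.41 and 1.63 CPM. C3 had its highest mean later, with 8.22, 12, 43.5, 78.2, 113 and 55.0 CPM. Collagen and Timp1 were therefore far below their maximum on Day 28 while still above Day 0. Myh7 was at 6.17, 72.3, 56.5, 69.3, 103 and 30.4 CPM and Ankrd1 at 271, 1132, 695, 411, 494 and 472 CPM. Sox4 and Bdh1 behaved otherwise, since Day 28 was the day of their highest mean. Bdh1 was among the genes that differed between Day 28 and Day 14 in the direct test listed below, while Sox4 was not. Sox4 went 10.8, 8.87, 11.8, 15.5, 17.5 and 23.9 CPM, and Bdh1 14.8, 11.3, 11.8, 11.4, 11.7 and 22.9 CPM.

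**Figure D5:**
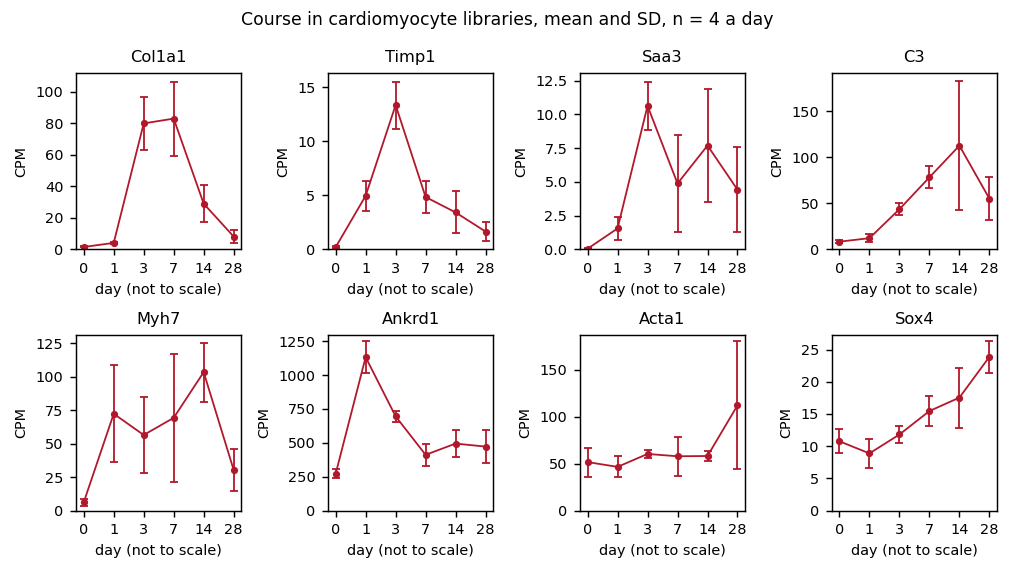
Mean CPM (y axis, each panel from 0) of 8 genes on Day 0, 1, 3, 7, 14 and 28 (x axis, evenly spaced and not to scale), with the SD as whisker (n = 4 libraries a day). Col1a1 and Timp1 peak by Day 7 and are far below the peak but still above Day 0 on Day 28, C3 peaks on Day 14, and Sox4 is highest on Day 28.

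A direct test of Day 28 against Day 14 found 969 genes higher (6.66%) and 1020 lower (7.02%) of 14540. Of the collagen genes 12 of 22 were lower on Day 28 than on Day 14 and none higher, of the matricellular genes 7 of 15, of the TGF-beta genes 7 of 19, of the mesothelial genes 5 of 8 and of the cell cycle genes 9 of 33, none of them with a higher member. Col1a1, Col3a1 and Sfrp2 were lower by log2 differences of -1.86, -1.76 and -1.67, and Myh7 by -1.76. In the other direction 24 of 36 oxidative phosphorylation genes and 25 of 36 ribosomal protein genes were higher on Day 28 than on Day 14 and none was lower, and 9 of 32 sarcomere genes were higher and 2 lower. Bdh1 was higher by 0.98, and Acta1 by 0.95. The total was 207 without Day 14 replicate 2 and 579 without Day 14 replicate 3, and 610 and 728 without Day 28 replicates 3 and 4. With the last 2 libraries both left out it was 127, 5 higher and 122 lower. Of the lists above, 9 collagen, 4 matricellular, 3 TGF-beta, 4 mesothelial and 5 cell cycle genes were then lower. No oxidative phosphorylation, ribosomal protein or sarcomere gene was then called, with medians of 0.53, 0.47 and 0.16 beside 0.69, 0.75 and 0.28 with all libraries.

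The change in CM was finally compared with the mean change from Day 0 to Day 28 in the endothelial (EC), fibroblast (FB) and hematopoietic (HC) isolates, 4 libraries each per day. Each cell type was also its own library batch, and the contribution of the batch to any difference cannot be told apart. By the study's methods the isolates of a day came from the same hearts, while the fit took all libraries as independent. Of 20994 genes 1031 differed in their change (4.91%), 824 more in the upward direction in CM (3.92%) and 207 more in the downward direction (0.986%). The first set held 23 of 32 sarcomere genes, 31 of 36 oxidative phosphorylation genes and 13 of 26 fatty acid oxidation genes. CM transcripts fell in the other isolates in this interval, Myh6 by log2 differences of -2.04 in EC, -1.87 in FB and -2.03 in HC, and the part of that fall in these counts was not tested. Of the complement genes 5 of 17 rose more in CM, C3 among them, with a log2 fold change of 2.69 in this fit beside 1.88 for EC, 0.33 for FB and 1.66 for HC (difference from the mean of the others 1.40). The larger change started from a lower level. Scaled over the 32 libraries, mean C3 on Day 0 and Day 28 was 30.3 and 197 CPM in CM and 1470 and 1849 CPM in FB. In EC it was 117 and 430 CPM, and in HC 59.2 and 186 CPM. None of 22 collagen genes differed in its change. Col1a1 had a log2 fold change of 2.46 in CM beside 2.71 for EC, 0.55 for FB and 2.18 for HC. Scarna10 had -1.26 in CM beside 1.08 for EC, -0.67 for FB and -0.04 for HC (difference from their mean -1.38). Sox4 had 1.14 beside -0.04, 0.55 and 0.22 (difference 0.89), and Ccnd2 0.51 beside -0.56, 0.07 and -0.27 (difference 0.77).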

How the data were processed

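Total RNA libraries of CM were sequenced. According to the submitters' processing notes, reads were trimmed by Trim Galore, aligned to mm10 by STAR 2.28 and assigned to transcripts by Salmon. The files deposited by the authors give, per transcript, an estimated count from Salmon and a TPM value, which is scaled for effective length and depth. Per gene, these were summed with GENCODE release 21 of GRCm38, which also gave names and coordinates. Entries that matched no gene (up to 0.156% of reads in a CM library and up to 0.363% in an EC library) were left out. The test was edgeR 4.0.16 in R 4.3.3 on rounded gene sums (TMM, filterByExpr, robust quasi-likelihood fit of all 24 CM libraries, Benjamini-Hochberg adjustment over all genes tested, calls below 0.05), which gave all adjusted p-values in the text. SE was |log2 fold change| over the root of the F statistic. The change against the other cell types was the interaction term of the same kind of fit over 32 libraries. For it, CM and EC files listed 137734 transcripts, while the FB and HC files of these days listed 51398 genes, and 141 genes whose length in the gene files lay outside the range of their transcripts were left out. Alternatives used limma 3.58.1 and DESeq2 1.42.0. Counts were simulated for the 14540 genes of the Day 28 comparison, with changes set only in genes of a mean above 2 CPM. Of genes changed by 1 on the log2 scale 84.4% were recovered, and of those changed by 2, 98.2%. The simulated counts held no length trend between libraries, and the median level of the higher calls was 1.42 CPM. The rates therefore do not cover genes at such levels or libraries that stand apart.

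Gene members, the 57 lists and the alternatives were chosen with earlier results of these data known, and 2 alternatives, the joint removal of Day 28 replicates 3 and 4 and of the length trend, were added after the data were seen. Named were the 20 highest and 20 lowest called genes of at least 5 CPM whose groups did not overlap, up to 5 called and the 2 most abundant members of each list, the study's cell markers, Actb and Bcl2. Anxa1, C1ra, C1s1, C2, Ccdc80, Col5a2, Col6a1, Col8a1, Lrrn4, Marco, Mcub, Pdpn, Postn, Rab34, Runx1, S100a4, S100a6, Scarna10, Serping1, Slpi, Snora3, Snora7a and Wt1 fall outside this rule and were chosen after their values were seen. A gene with at most 3 reads in every Day 0 library is given as levels. Not all genes named by the rule are described. No set test was run.
Single values of some marker genes are not reported here.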

Additional observations from a re-analysis of the deposited data

Results flagged for a closer look

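Of 250 sets of 4 libraries tested for the genes described, 15 had a library far from its group by Dixon's criterion, which flags about 1 in 20 groups by chance. On Day 0 replicate 2 was the distant library for Timp1 (0.332 CPM), Cxcl5 (0.0237 CPM), Ccl9 (0.237 CPM), Acta1 (74.6 CPM), Actc1 (3200 CPM), Ttn (6355 CPM), Ccnd2 (37.9 CPM) and Snora3 (43.6 CPM). Replicate 1 was distant for Plac8 (0.0326 CPM) and replicate 3 for Fn1 (2.83 CPM). On Day 28 the distant libraries were replicate 4 for the growth factor gene Tgfb2 (4.77 CPM) and for Rpl36a (12.4 CPM), replicate 3 for Wt1 (1.94 CPM) and for Snora3 (2.91 CPM), and replicate 2 for Scn4b (4.98 CPM).

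For 29 genes the change from Day 0 to Day 28 differed between CM and the mean of EC, FB and HC by the interaction test, given here as log2 differences. Over all genes 1031 of 20994 differed (4.91%). Many of the genes described were chosen by their values in CM Day 28 against Day 0. The interaction test uses those same CM libraries, so the count of 29 may follow in part from that choice. Innate defence and antigen genes changed more upwards in CM: Cfb by 2.06, C3 by 1.40, C1s1 by 1.31, C1ra by 1.22, Psmb8 by 1.33, Ifitm3 by 1.09 and Oasl2 by 0.83. Of these, Cfb, C3, C1s1, C1ra, Ifitm3 and Oasl2 had lower mean levels in CM than in FB on both days. C1s1, for example, had 5.43 CPM on Day 0 and 21.4 CPM on Day 28 in CM. In FB it had 199 and 220 CPM in the same fit. So did muscle genes, with 2.66 for Myh7, 2.33 for Acta1, 2.07 for Ankrd1 and 0.84 for Abcc9, which fell less in CM than in the mean of the others. The remaining upward differences were 2.97 for Mcub, 2.66 for S100a4, 1.58 for Gdf15, 1.44 for Gxylt2, 1.39 for Msln, 1.21 for Rab34, 1.12 for Top2a, 1.05 for Anxa1, 0.89 for Sox4, 0.84 for Zbtb7a and 0.77 for Ccnd2. Mcub had almost no reads in CM on Day 0 (mean 0.0522 CPM in this fit), so that its fitted difference depends on the prior count. Differences in the downward direction were -1.76 for Rpl36a, -1.75 for Snora7a, -1.38 for Scarna10, -1.27 for Ncapd2, -1.11 for Rps2, -0.83 for Lama2 and -0.76 for Rpl9. The mean of the other cell types includes isolates in which CM transcripts fell, and the batch of a cell type cannot be told apart from the cell type.

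For 38 genes Day 28 differed from Day 14 in CM, again as log2 differences. Matrix genes were lower on Day 28, by -1.99 for Col5a2, -1.86 for Col1a1, -1.79 for Col12a1, -1.76 for Col3a1, -1.67 for Sfrp2, -1.59 for Col1a2, -1.28 for Col6a2, -1.27 for Fstl1, -1.17 for Col6a1, -1.03 for Efemp1, -0.79 for Tgfb2 and -0.42 for Lama2. Mesothelial and stromal genes were lower as well: Krt8 by -1.62, Upk1b by -1.49, Pdpn by -1.29, Lrrn4 by -1.18, Krt18 by -1.08 and Pdgfra by -0.58. Among immune and stress genes the differences were -2.62 for Cxcl5, -1.48 for Il33, -1.33 for C1s1, -1.19 for Timp1, -1.17 for Anxa1, -1.16 for Serpina3n, -0.87 for Oasl2, -0.82 for C1ra and 0.84 for Psmb8. The others were -1.76 for Myh7, -1.38 for Runx1, -1.16 for Top2a, -0.80 for Erbb4, -0.70 for Vps13c, -0.67 for Prkdc, -0.55 for Zfpm2, -0.43 for Lifr, 0.81 for Spc24, 0.95 for Acta1 and 0.98 for Bdh1. This comparison shares the Day 28 libraries with the comparison against Day 0, by which many of these genes were chosen. Over all genes 1989 of 14540 differed from Day 14 (13.7%).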

How the results depend on the processing

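The 520 calls of Day 28 against Day 0 became 545 with DESeq2 size factors, 528 without rRNA genes and 520 without robust estimation, but 274 without the filter on low counts, 1006 by DESeq2's own test, 850 by limma on log2 CPM, 82 from the 8 libraries alone, 77 and 165 by limma on log2(TPM + 1) and log2(TPM + 0.1), and 0 by limma on log2(TPM + 1) without a filter, where 2287 genes had an unadjusted p under 0.05 (3350 in the main test). Of the 520, DESeq2 also called 511, limma on CPM 510 and the 8 libraries alone 76 of the 470 tested there. The count ranged from 56 to 1018 without 1 library and was 5 without Day 28 replicates 3 and 4. With the length trend removed 549 of 12787 protein-coding genes were called, where 428 of the same genes were called without that step. On the TPM scale the median over all genes was 0.11, and 0.20 with the smaller pseudocount. Between Day 0 and Day 28, the deviations of same-numbered libraries from their group means had correlations of 0.13, 0.11, 0.07 and -0.02. The replicate block, over CM libraries of all days, gave 1297 calls in place of 520 (3201 in place of 1989 against Day 14). Whether a library number carries a structure shared across days was not tested, and the main test did not model one. Against Day 14 the 1989 calls became 1244 without the filter and 127 without Day 28 replicates 3 and 4, and ranged from 207 to 2621 without 1 library. The interaction count of 1031 became 1732 by DESeq2, 2132 without the 6 EC, FB and HC libraries that stand apart, 540 against FB alone, 2440 against EC alone and 553 to 1263 without 1 CM library; the replicate block gave 1108. The gene Cldn12 and the gene Erbb4, lower at Day 28, had differences of 0.0506 and 0.0280 on log2(TPM + 1) without a filter, neither called. Gene results under the alternatives were unchanged in call and direction in 3897 cases, lost the call in 856 and gained it in 45. The causes were not tested. Depth limits genes near 0.11 CPM on Day 0, where 3 reads separate silence from detection.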
